A study of Triticum aestivum with 4 samples.

Results

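Here the peaks of the wheat clock protein TaCCA1-7D were described in 21 stretches of the genome taken as the centromeres, 1 on each chromosome of the A, B and D subgenomes. A peak belonged to an interval when its summit fell between borders given in whole Mb. The rule uses position and no value of the peaks, and where the borders come from is not given in the sources used here. The intervals were 2 to 9 Mb long and 110 Mb in all, and held 2196 of the 467343 listed peaks. For comparison, the 20 Mb on each side of every interval (840 Mb, 26111 peaks) served as flanks. The list carries no mark of the centromeric histone and no repeat annotation, so the name centromere rests on these positions, and genes and sequence under the peaks were not analysed here because no genome of the authors' build was used.

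The peaks came from DNA affinity purification sequencing (DAP-seq), in which sheared naked DNA is exposed to a purified protein on beads and the bound fragments are sequenced. The bait was TaCCA1-7D fused to maltose-binding protein, the DNA came from leaves of 2-week-old seedlings of the cultivar Fielder, and the series comprised 2 CCA1 libraries and 2 input libraries. A single list of filtered peaks covers the experiment, so no value per library and no replicate error could be given. The units compared were therefore the 21 chromosomes of this list, and each test describes the list and not the spread between experiments.

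CCA1 is a MYB-type transcription factor of the plant circadian clock, known from Arabidopsis to repress evening genes by binding the evening element and related AT-rich sites in their promoters. Centromeres are the sites where the kinetochore assembles on nucleosomes with the histone variant CENH3. In wheat they are built largely of centromere-specific retrotransposons of the Gypsy type and hold few genes. In DAP-seq the protein meets DNA without chromatin, so a peak reports binding to that DNA and not the chromatin state at the centromere.

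The kind of site the bait was tested on is shown by a pair of oligonucleotides that the study designed from the promoter of TraesCS1D02G226100, a gene not analysed here. They are printed because they show the short word at issue and the bases that were replaced to remove it. Capitals mark the word AATATC in the first strand and the 5 replaced bases in the second.

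DAP1-R: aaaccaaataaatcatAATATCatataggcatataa

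DAP1-M_R: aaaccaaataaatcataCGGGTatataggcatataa

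The word occurs once in the first strand and not in the second, on the strand printed. Whether the peaks of the centromere intervals hold it was not analysed here.

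Peaks were sparse in the centromere intervals. The density was 19.5 ± 5.88 peaks per Mb in the intervals and 31.1 ± 1.63 in the flanks (SD over 21 chromosomes), a difference of -11.6 ± 6.39 (SD), and it was lower in the interval in 20 of the 21 comparisons (two-sided exact sign test, p = 2.1e-05, adjusted p = 7.69e-05 by Benjamini-Hochberg over 11 measures). Expressed per chromosome, an interval had 63.0 ± 20.3% of the density of its own flanks. The 2 flanks of a chromosome were also compared with each other. The lower-coordinate and higher-coordinate flanks had 31.0 ± 2.33 and 31.2 ± 2.11 peaks per Mb, and their difference passed no test (exact two-sided sign test, p = 0.664, lower flank higher on 9 of 21 chromosomes). The largest gap between the 2 flanks of any chromosome was 6.15 peaks per Mb, and 17 of the 21 intervals lay below their flanks by more than that. This is a description, since each flank is 20 Mb long and the intervals are 2 to 9 Mb, and shorter stretches vary more (SD of 6.92 peaks among flank stretches of 1 Mb).

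**Figure D1:**
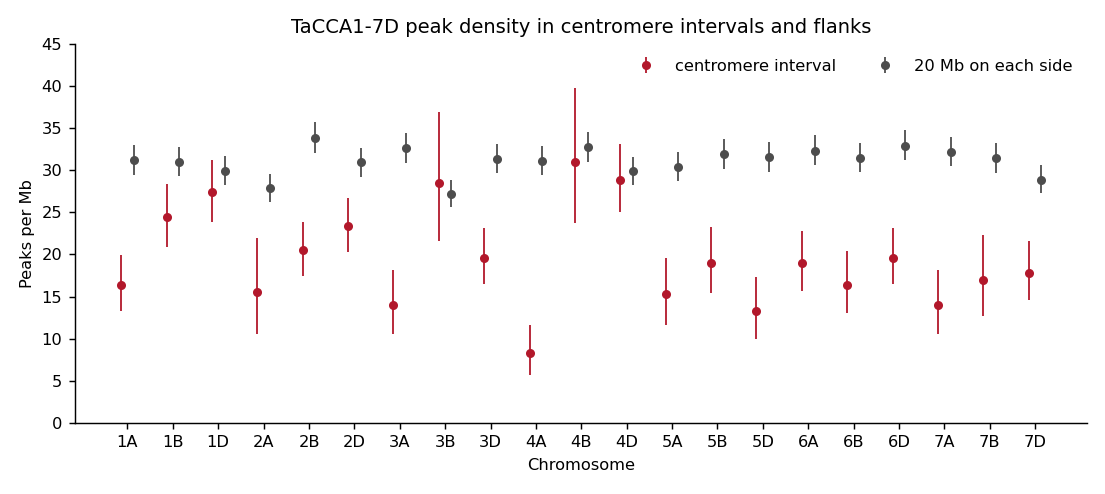
Peaks per Mb (vertical axis) for each chromosome (horizontal axis) in the centromere interval (red) and in the 20 Mb on each side together (grey). Bars are exact 95% Poisson intervals, which cover counting error only. The interval of 4A is lowest at 8.25 peaks per Mb, and the interval of 3B is the exception that lies above its flanks.

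The values of the single intervals ranged widely, and each is given here with its peak count. In homoeologous group 1, the interval of 1A (210 to 216 Mb) held 98 peaks at 16.3 per Mb, against 31.2 in its flanks. The interval of 1B (237 to 244 Mb) held 171 at 24.4 against 31.0, and that of 1D (166 to 174 Mb) held 219 at 27.4 against 29.9. The fall was thus steepest on 1A, and on 1D it was within counting error, since the density was 91.4% of that of the flanks with an exact 95% interval of 78.8 to 106%.

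In group 2, the interval of 2A (326 to 328 Mb) held 31 peaks at 15.5 per Mb against 27.9. The interval of 2B (344 to 352 Mb) held 164 at 20.5 against 33.8, and that of 2D (264 to 273 Mb), the longest, held 210 at 23.3 against 30.9. All 3 were below their flanks beyond counting error, with 2A resting on the fewest peaks of any interval.

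Group 3 held the exception. The interval of 3A (316 to 320 Mb) had 56 peaks at 14 per Mb against 32.6, and that of 3D (237 to 244 Mb) had 137 at 19.6 against 31.4. The interval of 3B (345 to 347 Mb) had 57 peaks at 28.5 per Mb against 27.2, which is 105% of its flanks with an exact 95% interval of 78.8 to 137%. On 3B the flanks had the lowest density of all 21 chromosomes. Sparse stretches lay there on both sides of the interval, with 16 peaks in each of the 2 Mb from 347 to 349 Mb and 4 and 3 peaks in the pair of 0.5 Mb stretches that meet at 340 Mb.

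Group 4 spanned the whole range. The interval of 4A (264 to 268 Mb) had 33 peaks at 8.25 per Mb against 31.1, or 26.5% of its flanks (exact 95% interval 18.1 to 37.4%), the lowest ratio of the 21. The intervals of 4B (303 to 305 Mb) and 4D (182 to 189 Mb) had 62 peaks at 31.0 per Mb against 32.8, and 202 peaks at 28.9 against 29.9. Both were within counting error of their flanks, at 94.6 and 96.6%.

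In groups 5, 6 and 7 each of the 9 intervals was below its flanks beyond counting error. The interval of 5A (252 to 256 Mb) held 61 peaks at 15.2 per Mb, 5B (198 to 203 Mb) held 95 at 19.0 and 5D (185 to 189 Mb) held 53 at 13.2, against 30.4, 31.9 and 31.5 in their flanks. The interval of 5D, at 42.0% of its flanks, was the lowest of the D subgenome. The interval of 6A (283 to 289 Mb) held 114 peaks at 19.0 per Mb, 6B (323 to 328 Mb) held 82 at 16.4 and 6D (211 to 218 Mb) held 137 at 19.6, against 32.3, 31.4 and 32.9. These 3 lay close together, at 58.8, 52.1 and 59.4% of their flanks. The interval of 7A (360 to 364 Mb) held 56 peaks at 14 per Mb, 7B (308 to 311 Mb) held 51 at 17.0 and 7D (336 to 342 Mb) held 107 at 17.8, against 32.2, 31.4 and 28.9.

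Over the 21 chromosomes the exact interval of the ratio lay below 100% for 17. The exceptions were 1D, 3B, 4B and 4D. In 19 chromosomes the interval was below each of its 2 flanks taken alone.

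By subgenome, the interval had 47.1 ± 10.8% of the flank density on the A chromosomes, 72.1 ± 20.9% on B and 69.9 ± 19.2% on D (SD, n = 7 chromosomes each). The A intervals ranged from 26.5 to 58.8%, the B intervals from 52.1 to 105% and the D intervals from 42.0 to 96.6%, so the ranges overlapped. The A interval was the lowest of its homoeologous group in 5 of 7 groups and the D interval the highest in 5 of 7. No test of the subgenomes was planned, and none was run. The intervals also differed in length, with medians of 4 Mb on A, 5 Mb on B and 7 Mb on D. Across all 21 intervals, length and ratio had a Pearson r of 0.16, and among the 18 longer than 2 Mb it was 0.74. The intervals of 2 Mb left out there, 2A, 3B and 4B, had 55.6, 105 and 94.6% of the flank density. This is a description of intervals from 1 list whose borders are given in whole Mb. The part of length in the difference between subgenomes was not tested.

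The counts also varied within and between the intervals. Among the 110 interval stretches of 1 Mb, the median was 19 peaks, the lowest 1 and the highest 43, against a median of 31 and a range of 5 to 50 in 840 flank stretches. At most 10 peaks were found in 18 of the 110 interval stretches (16.4%) and in 8 of the 840 flank stretches (0.952%), of which 5 lay within 3 Mb of an interval border. The lowest 1 Mb stretch of the interval held fewer peaks than any of the 40 flank stretches on 15 of 21 chromosomes. On 3 chromosomes (3A, 4A and 6D) it had the lowest count of the entire chromosome, or tied with it.

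**Figure D2:**
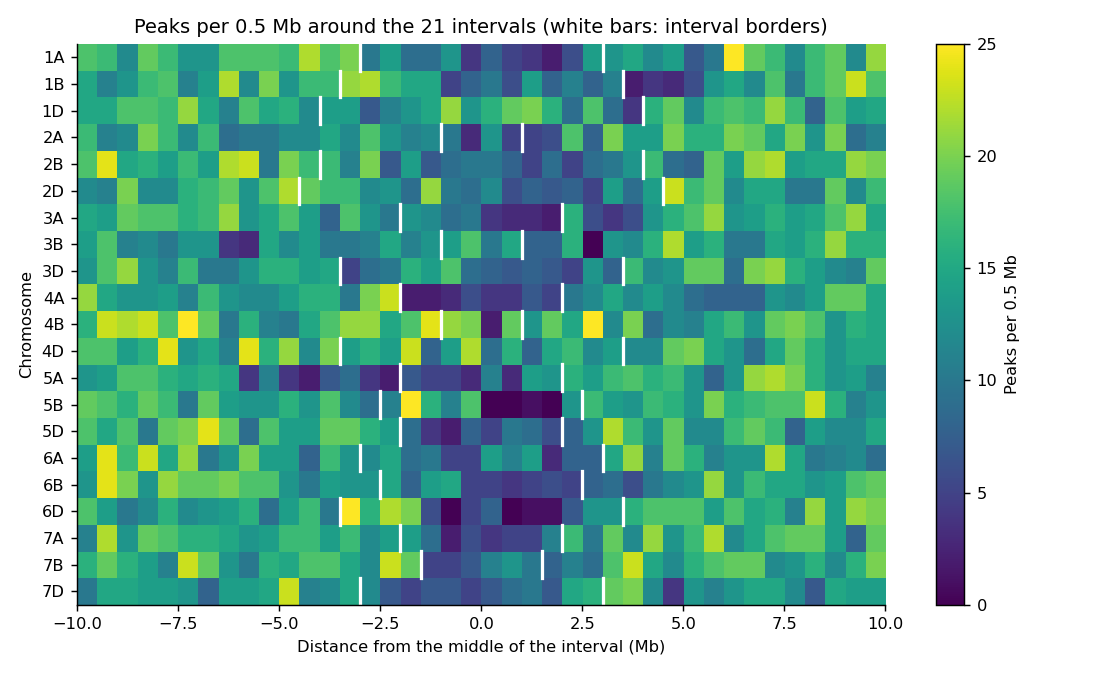
Number of peaks per 0.5 Mb (colour) by distance from the middle of the interval (horizontal axis, Mb) for the 21 chromosomes (rows). White bars mark the interval borders, and the darkest runs lie inside the intervals of 5B and 6D, where 5 bins held 0 peaks. A bin above the upper border on 3B also held 0.

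Single chromosomes show how the position varied. These stretches were picked after their values were seen. On 5B, the 4 consecutive stretches of 0.5 Mb from 200.5 to 202.5 Mb held 0, 0, 1 and 0 peaks. On 6D, the 3 from 215 to 216.5 Mb held 0, 1 and 1, and the one from 213.5 to 214 Mb held 0. These 2 chromosomes held all 5 empty stretches among the 220 of the intervals. Outside the borders, the stretch of 0.5 Mb that starts 2.5 Mb above the middle of the 3B interval also held 0. Empty stretches of 0.5 Mb were not counted over all flanks.

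On 4B the interval as a whole was within counting error of its flanks, yet the stretch from 304 to 304.5 Mb held 2 peaks, while its neighbours within the interval held 20 and 19. On 5A the sparse run reached past the lower border, with 6, 16, 6 and 15 peaks in the 4 Mb below 252 Mb and 31 in the next. On 1B, 6 and 9 peaks lay in the 2 Mb above the upper border at 244 Mb. Dense stretches thus lay inside the borders in whole Mb and sparse ones outside them. Peak counts do not show where the centromere itself lies.

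Averaged by distance, the mean density was lower in each of the first 3 Mb inside the border than in any step outside it. Each step averaged the stretches at that distance from the lower and the upper border. The middle Mb of an interval with an odd length in Mb was therefore in no step. Within the interval, the first Mb from the border had 22.0 ± 6.70 peaks (SD, 21 chromosomes), the second 17.8 ± 7.03 (17 chromosomes) and the third 18.4 ± 7.37 (10 chromosomes). Outside, the first Mb had 27.9 ± 6.29 and the fifth 30.5 ± 4.24 peaks. The steps from 6 to 20 Mb had means of 29.6 to 33.6. The fourth Mb inside, reached separately from both borders in 3 chromosomes, had 25.2 ± 8.33, above the other steps inside. On 1B, 3D, 4D and 6D the fourth Mb is the middle one and was left out. It held 18, 17, 31 and 13 peaks there. Each inner step rests on a different set of chromosomes. The SDs of neighbouring steps overlapped throughout.

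**Figure D3:**
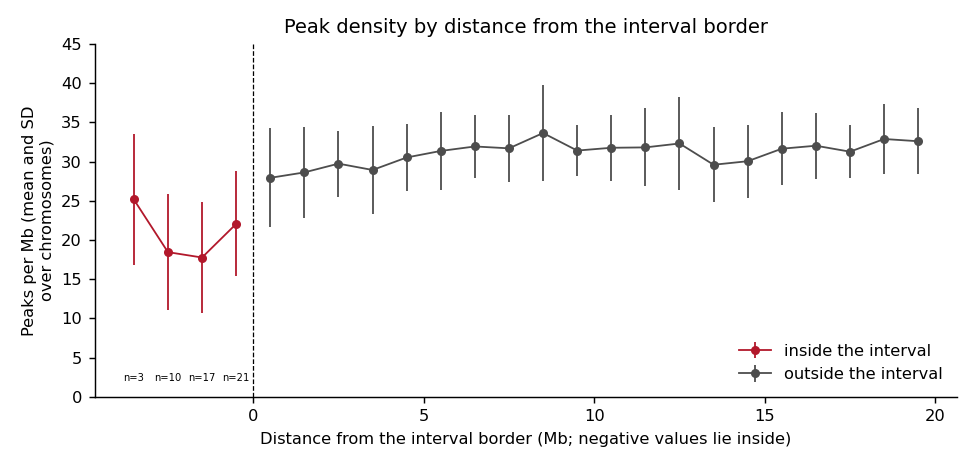
Mean number of peaks per Mb (vertical axis, bars are SD over chromosomes) by distance from the interval border in steps of 1 Mb (horizontal axis; negative values lie inside, with the number of chromosomes written below). The mean is 17.8 to 22.0 in the first 2 steps inside and 27.9 in the first step outside.

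Stretches without a peak were also more common in the intervals. Of the 100 kb bins, 23.9 ± 12.8% held no summit in the intervals against 4.93 ± 1.78% in the flanks (SD over 21 chromosomes), higher in the interval in 20 of 21 (two-sided exact sign test, p = 2.1e-05, adjusted p = 7.69e-05 by Benjamini-Hochberg). The interval share was lowest on 3B, at 5%, and highest on 2A and 4A, at 45%. The exception to the direction was again 3B, whose flanks had 8.00%. A lower density by itself leaves more bins empty, so this test is not separate from that of density. Whether the empty bins go beyond that was not tested. Counted over all bins, 245 of 1100 in the intervals and 414 of 8400 in the flanks were empty. Pooled over all chromosomes, the count per bin was also more uneven in the intervals, with a variance of 1.49 times the mean against 0.968 in the flanks. This pooled variance takes in differences between chromosomes. Densities ran from 8.25 (4A) to 31.0 (4B) peaks per Mb in the intervals and from 27.2 (3B) to 33.8 (2B) in the flanks. Unevenness within single intervals was not tested. Occupied bins were not as dense as in the flanks either. Over occupied bins alone, an alternative picked with the data in view, the density was 25.4 ± 5.73 against 32.7 ± 1.42 peaks per Mb, lower on 19 of 21 chromosomes.

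Distances between neighbouring summits had a median of 26.7 kb in the intervals (quartiles 11.9 and 59.8 kb) and 22.2 kb in the flanks (quartiles 10.7 and 42.6 kb). The intervals differed most at long distances. Gaps over 200 kb made up 70 of 2175 in the intervals, on 20 chromosomes, and took 22.5% of their length. In the flanks they made up 84 of 26069, on 21 chromosomes, and took 2.61% of the length. Gaps over 500 kb numbered 9 in the intervals, on 5 chromosomes, and 3 in the flanks, on 3 chromosomes. A lower density by itself lengthens gaps, and whether these gaps go beyond that was not tested.

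The longest gap in an interval, 1416 kb, ran on chromosome 5B from 200369329 to 201785518. The next, 1101 kb and 900.4 kb, ran on 6D from 214831703 to 215932495 and from 213281663 to 214182061. The longest gap in the flanks, 679 kb on 3B from 348440406 to 349119459, was shorter than 5 of the gaps within intervals. None of these gaps was without peaks before the authors' filter. By the running numbers that the peak caller gave to its peaks, 3 weaker peaks had been called within the gap on 5B and 4 and 3 within the pair on 6D.

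**Figure D4:**
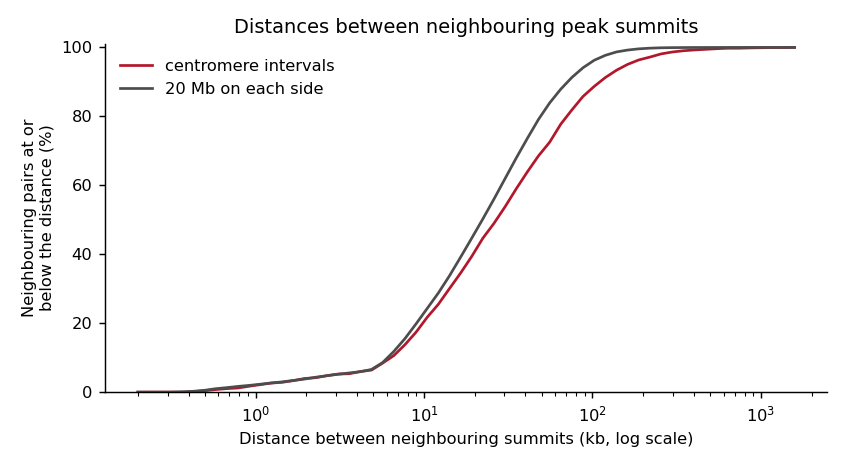
Cumulative share of neighbouring summit pairs (vertical axis, %) by their distance (horizontal axis, kb, log scale) in the intervals (red) and the flanks (grey). The curves run together below 5 kb and separate above, with medians of 26.7 and 22.2 kb.

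At short distances no difference passed the test. The nearest summit lay within 2 kb for 7.60 ± 4.43% of the interval peaks and 7.65 ± 1.12% of the flank peaks (SD over 21 chromosomes, two-sided exact sign test, adjusted p = 0.73, difference -0.0534 ± 4.41 percentage points). There were 86 pairs and 1 run of 3 summits at such distances in the intervals.

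The shortfall was present before the authors' filter. From the running numbers, 46.1 ± 12.6 peaks per Mb had been called in the intervals against 73.3 ± 3.71 in the flanks (SD), lower in each of the 21 (two-sided exact sign test, p = 9.54e-07, adjusted p = 1.05e-05 by Benjamini-Hochberg). The ratio ranged from 35.8% on 4A to 99.3% on 4D. Unlike the density of listed peaks, this density was taken over the span between the first and last listed summit of a stretch. Called peaks outside that span were not counted. The share of called peaks that passed the filter was 43.1 ± 4.92% in the intervals and 42.6 ± 1.13% in the flanks, higher in 11 and lower in 10 of 21 (exact sign test, adjusted p = 1). Single intervals scattered more than flanks, from 33.3% on 4A to 53.7% on 7B, and rest on fewer peaks.

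The tags behind each summit could be worked back from the deposited fold enrichment and p-value. The pileup is the number of tags that overlap the summit, and the background is the number the caller expected there by chance. Interval peaks had a median pileup of 11 tags (quartiles 9 and 14, range 8 to 109) and flank peaks a median of 12 (quartiles 10 and 15). With fewer than 20 tags behind 94.1% of the interval peaks, the strength of a single peak has a wide counting error. The median background was 0.845 tags in the intervals and 0.95 in the flanks. The lowest background in the list, 0.621 tags, was found for 31.7 ± 10.8% of the interval peaks and 24.4 ± 1.32% of the flank peaks (SD over 21 chromosomes). It was higher in the interval on 16 of 21 chromosomes, which did not pass the test after adjustment (exact sign test, p = 0.0266, adjusted p = 0.0732). In the intervals longer than 2 Mb the same difference passed it (15 of 18, adjusted p = 0.0207 from the exact sign test).

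The interval of 1A had the highest such share, 52.0%, and that of 2A, with 31 peaks, the lowest, 6.45%. A background above 2 tags was found for 4.00 ± 2.54% of the interval peaks and 5.98 ± 1.29% of the flank peaks, lower on 15 of 21 chromosomes (exact sign test, adjusted p = 0.123). Pileups of 20 tags or more made up 5.32 ± 2.33% against 6.94 ± 0.813%, also lower on 15 of 21 (exact sign test, adjusted p = 0.123). Pooled over the intervals, 130 of 2196 peaks (5.92%, 95% Wilson interval 5.01 to 6.99%) had such a pileup, beside 8.13% of all listed peaks. The pooled medians of pileup and background were thus both lower in the intervals, and their part in the lower density was not tested.

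**Figure D5:**
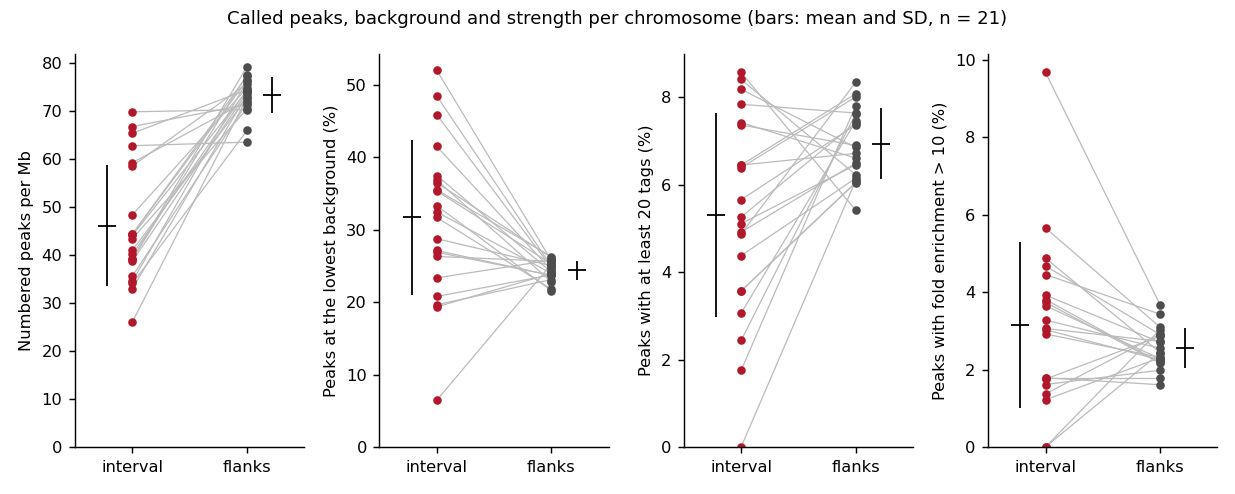
Values of the interval (red) and its flanks (grey) for each of 21 chromosomes, joined by lines, for the called peaks per Mb and the shares (%) of peaks at the lowest background, with at least 20 tags and with a fold enrichment above 10. Black bars are the mean and SD over chromosomes, and the called peaks per Mb, 46.1 against 73.3 on average, were the one measure of the 4 that passed its test.

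Split by pileup, the density of interval peaks was nearest to that of the flanks at the lowest pileups. Peaks of 8 or 9 tags had 76.0% of the flank density (exact 95% interval 69.7 to 82.7%, counting error only), those of 12 to 14 tags 58.8% (53.7 to 64.2%) and those of at least 20 tags 54.7% (45.4 to 65.4%). Split by background, peaks at the lowest background had 81.2% of the flank density (74.9 to 87.9%) and those above 2 tags 49.1% (39.8 to 60.1%). The density was therefore below that of the flanks in each class of either split, and least so at 8 or 9 tags and at the lowest background. The classes were set with the data in view and were not tested.

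The fold enrichment, which divides pileup by background after adding 1 to each, did not pass the test either. The median was 6.27 ± 0.118 in the intervals and 6.19 ± 0.0520 in the flanks (SD over 21 chromosomes), higher on 13 and lower on 5 chromosomes (exact sign test, adjusted p = 0.132). A fold enrichment above 10 was reached by 69 of the 2196 interval peaks, or 3.14% (95% Wilson interval 2.49 to 3.96%), and by 2.54% of the flank peaks, beside 3.02% of all listed peaks. The share per chromosome was 3.16 ± 2.15% against 2.55 ± 0.518%, higher on 14 and lower on 6 (exact sign test, adjusted p = 0.141). The intervals of 3B and 5B had 0 such peaks of 57 and 95, which allows shares of up to 5.26 and 3.16% when 0 is read as at most 3 peaks. The density of these strong peaks was 0.627 per Mb in the intervals and 0.789 in the flanks, or 79.5% (exact 95% interval 61.1 to 102%). For strong peaks alone, the lower density did not pass the test (lower on 15 of 21 chromosomes, adjusted p = 0.235 from the exact sign test).

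Interval peaks had a median width of 469 ± 34.7 bp, averaged over the 21 intervals, against 485 ± 13.3 bp in the flanks (SD), narrower on 15 of 21 chromosomes (exact sign test, adjusted p = 0.123). With the exact signed-rank test in place of the sign test, the differences in median width, median fold enrichment and the shares of high pileups and high backgrounds passed the threshold (adjusted p = 0.0196, 0.0214, 0.0196 and 0.0196). Together, peaks covered 1.00% of the length of the intervals and 1.62% of the flanks.

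The strongest peak of the intervals, on chromosome 7D from 336506894 to 336508290, had a fold enrichment of 17.4 with 109 tags at its summit on a background of 5.33, and ranked 390 by fold enrichment among all listed peaks. The next 4 reached 14.2 on 1A (211637067 to 211637694, 22 tags), 13.8 on 2B (346538813 to 346539373, 25 tags), 13.7 on 4D (186176899 to 186177691, 27 tags) and 13.0 on 1B (241719645 to 241720073, 20 tags). The peak on 7D stood apart by its tags, and those on 1A and 1B reached their values at the lowest background. The one on 7D was also among the widest, at 1397 bp.

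The 5 widest interval peaks were led by 1 on 1A of 1638 bp (212044392 to 212046029), which had 18 tags and a fold enrichment of 5.66. A peak on 4B followed with 1467 bp (303001833 to 303003299), and after the peak on 7D came 1 on 6D with 1394 bp (212700977 to 212702370) and 1 on 5D with 1352 bp (187962777 to 187964128). Width and strength were not the same property in these peaks, since their fold enrichments ran from 5.66 to 17.4.

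The next highest pileups after that on 7D, 53, 51 and 36 tags, lay within 13 kb of each other on 2D. Together with a peak of 35 tags they formed a cluster of 4 from 272790351 to 272803880, which was picked after its values were seen. The backgrounds there were 4.51 to 6.39 tags, far above the median of the intervals, and the fold enrichments were 9.44, 5.21, 5.01 and 7.97. The next peak above it, at 272816748, had 21 tags on a background of 0.95. The sites nearest to a border were a peak 352 bp inside the interval of 6B (8 tags, fold enrichment 5.55) and 1 that lay 817 bp outside that of 5D (18 tags, fold enrichment 10.2), so no summit within 200 bp of a border decided its place.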

How the data were processed

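The labels put 2 libraries in the CCA1 group and 2 in the input group. The authors trimmed the reads with Trimmomatic, used Bowtie2 2.3.4 to align them to the wheat genome of Ensembl, kept reads with a mapping quality above 10 (SAMtools 1.9), removed duplicates with Picard and called peaks with MACS2, keeping those past a fold enrichment of 5 at an FDR below 1e-05. Reads that fit several places equally well are lost at the mapping step, which can lower counts in repeats, and this was not tested. Which libraries were pooled or used as control is not given in the sources used here. The deposited list gives, per the authors' MACS2 run, the position, summit, fold enrichment (a ratio), −log10 p-value and −log10 q-value of each peak, and a score made from the q-value that was not used. Depth per library was not in the list, and the pileup gives the counting precision of a peak.

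Peaks were placed by summit, and positions are 1-based in the authors' build. Pileup and background were recovered as the whole-number pileup whose Poisson p-value matched within 0.0001 on the log10 scale, which succeeded for all 467343 peaks. Called peaks were counted from the running numbers in the peak names, between the first and last listed summit of each stretch. Their density was taken over that span. Background above 2 tags, at least 20 tags and neighbours within 2 kb set the shares. For each of 11 measures the interval was compared with the flanks of its chromosome by an exact two-sided sign test, Benjamini-Hochberg adjusted, threshold 0.05. Exact Poisson, Clopper-Pearson and Wilson intervals at 95% cover counting error only. The named peaks are the 5 strongest, the 5 widest, the one with the highest pileup and the 3 longest gaps, and the other peaks, gaps and stretches named were picked after their values were seen. Alternatives covered flank width and start, interval length, peak threshold, test and each chromosome left out. The intervals, measures and lists were chosen with earlier results of these data known. Scripts were tested on simulated data. Python 3.11.15, numpy 2.4.6, pandas 2.3.3, scipy 1.17.1 and matplotlib 3.10.9 were used. The 7213 peaks on unplaced scaffolds were left out of the comparison.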

Additional observations from a re-analysis of the deposited data

How the results depend on the processing

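The lower density of called peaks held under all 7 alternatives run for it, and the lower density of listed peaks and the excess of empty bins under 10 of 11 and 9 of 10. The exception to both was the restriction to a fold enrichment above 10, where few peaks are left: the differences were -0.201 peaks per Mb (adjusted p = 0.235 from the exact sign test) and 2.27 percentage points (adjusted p = 0.12). That restriction also turned the difference in the share at the lowest background to -1.13 percentage points. That share passed the test with intervals longer than 2 Mb alone (9.82 points) and with the exact signed-rank test (7.33), which also called the median fold enrichment (0.0765), median width (-15.7 bp), pileup of at least 20 tags (-1.63 points) and background above 2 tags (-1.99). With an FDR below 1e-10 the median fold enrichment passed it (0.232).

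Against the rest of the chromosome, an alternative added after seeing the data, 4 more measures passed: median width (-13.3 bp), pileup of at least 20 tags (-2.72 points), lowest background (9.87) and background above 2 tags (-3.32). The density was then 19.5 against 32.9 ± 0.881 peaks per Mb, lower on 21 of 21. The share with a close neighbour changed sign with flanks of 5 Mb (0.494), of 10 Mb (0.015), an FDR below 1e-10 (2.31) and without the outer 0.5 Mb of each interval (0.342, added later). The kept share changed sign with intervals longer than 2 Mb (-0.376). The causes were not tested.

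Leaving out each chromosome in turn, the difference in density ran from -12.3 to -11.0 peaks per Mb, in called peaks from -28.5 to -26.2, in empty bins from 17.9 to 20.1 points and in the lowest background from 6.38 to 8.64, where the omission of 2A, 3A, 4B, 4D or 6D passed the test (adjusted p = 0.0325 from the exact sign test). It ran from -0.0800 to 0.956 in the kept share, -0.558 to 0.348 in close neighbours, 0.0635 to 0.0892 in median fold enrichment, 0.332 to 0.784 in strong peaks, -22.6 to -13.5 bp in width, -1.86 to -1.40 in high pileups and -2.23 to -1.77 in high backgrounds. Between libraries of the same replicate number, no paired analysis was possible because the list does not separate the libraries. The pairs in the main tests were each interval and the flanks of its chromosome. Single peaks rest on few tags, and the 2 Mb intervals on 31 to 62 peaks.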
